A study of Mus musculus and Homo sapiens with 34 samples.

Results

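The genes described here are 50 mouse genes that carry out mitosis and chromosome segregation, with their human counterparts. They were taken by symbol from 7 tables of RNA sequencing counts that list between 16553 and 26245 genes each. All 50 symbols were found in each mouse table, and 49 were found in upper case in each human table. Mouse Kif4 has no human gene of the same symbol, so its human counterpart KIF4A is given apart. Every member found passed the filter on low counts, and the lowest count of any member in any library was 23. The members cover 8 roles. There are 8 genes of mitotic entry, 7 of chromosome structure and condensin, 8 of the centromere and kinetochore, 4 of the chromosomal passenger complex, 4 of the spindle checkpoint, 9 spindle motors and assembly factors, 4 genes of anaphase onset and 6 of the central spindle and cytokinesis.

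In mitosis the condensed chromosomes are captured by spindle microtubules at their kinetochores, held until every pair is attached, and then pulled apart before the cell body is cleaved. Most genes for this machinery are transcribed periodically, with their messages peaking late in the cycle, so their summed level in a culture follows how much of it is dividing. Their promoters are repressed in resting cells by the DREAM complex, whose MuvB core binds the cell-cycle genes homology region (CHR), and activated in cycling cells by B-MYB and FOXM1 acting through the same core, often beside CCAAT boxes bound by NF-Y. The MEK-ERK cascade carries growth signals to cell-cycle entry.

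The series holds 34 libraries in 17 groups of 2. Organoids 3154, labelled KrasFSF-G12D, p53frt, Rosa-FSF-CreERT2 and Hnf4aflox, were given ethanol or 4-hydroxytamoxifen (4OHT, labelled 2 mM for 2 days), which activates CreERT2 to delete Hnf4a, and were collected after 2 weeks. In a separate experiment labelled 48 h, the same organoids received ethanol or 4OHT, and vehicle or 3 nM MRTX1133, a small-molecule inhibitor. The labels give no other time between 4OHT and collection for it, and organoids given 4OHT are called deleted here. Organoids 1027B and cell line 3311 carry KrasFSF-G12D, p53frt, Rosa-FSF-CreERT2, Foxa1flox and Foxa2flox in every group; 1027B received vehicle, 10 nM trametinib (a MEK inhibitor) or 20 nM MRTX1133, and 3311 vehicle or 50 nM trametinib, each for 48 h. Trametinib at 20 nM, or vehicle, was also given for 48 h to H358 and H1651, which are human lung adenocarcinoma lines, and H1651 with a lentiviral, doxycycline-driven HNF4A construct received doxycycline at 1 µg/mL or none for 7 days. The 3154 genotype is represented by a single culture and the other mouse genotype by 2, one of organoids and one a cell line. No culture without the floxed Hnf4a allele received 4OHT, so the effects of 4OHT and of CreERT2 cannot be told apart from those of losing Hnf4a. The labels do not say whether the libraries of a group came from separate cultures, so p values measure only the spread between these libraries.

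Library totals ran from 19692517 to 45284286 counts, and members made up 0.0569% to 0.842% of a library. Levels are given as CPM, the count divided by the library total after TMM scaling, and changes as log2 ratios of treated over control. Calls, and the words rose and fell, refer to an edgeR adjusted p under 0.05. The 5 epithelial markers summed to between 3601 and 10910 CPM in every library. In H1651 libraries most of that sum was KRT8 and KRT18. CDH1 lay there between 34.8 and 84.7 CPM, EPCAM between 0.993 and 3.81 CPM and KRT19 between 6.41 and 8.70 CPM. The fibroblast markers summed to at most 26.2 CPM in mouse and to between 33.4 and 565.5 CPM in human libraries, with Col3a1 absent or at 0 in every mouse table. Leukocyte markers summed to at most 8.13 CPM and endothelial markers to at most 21.0 CPM. Hnf4a averaged 225 CPM in 48-hour ethanol organoids and 49.9 CPM in their 4OHT counterparts (log2 change -2.18, adjusted p = 0.000141). At 2 weeks the averages were 371 and 60.7 CPM (log2 change -2.61, adjusted p = 0.00643). Doxycycline took HNF4A in H1651 from 41.5 to 95.6 CPM (log2 change 1.20, adjusted p = 0.00979).

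**Figure D1:**
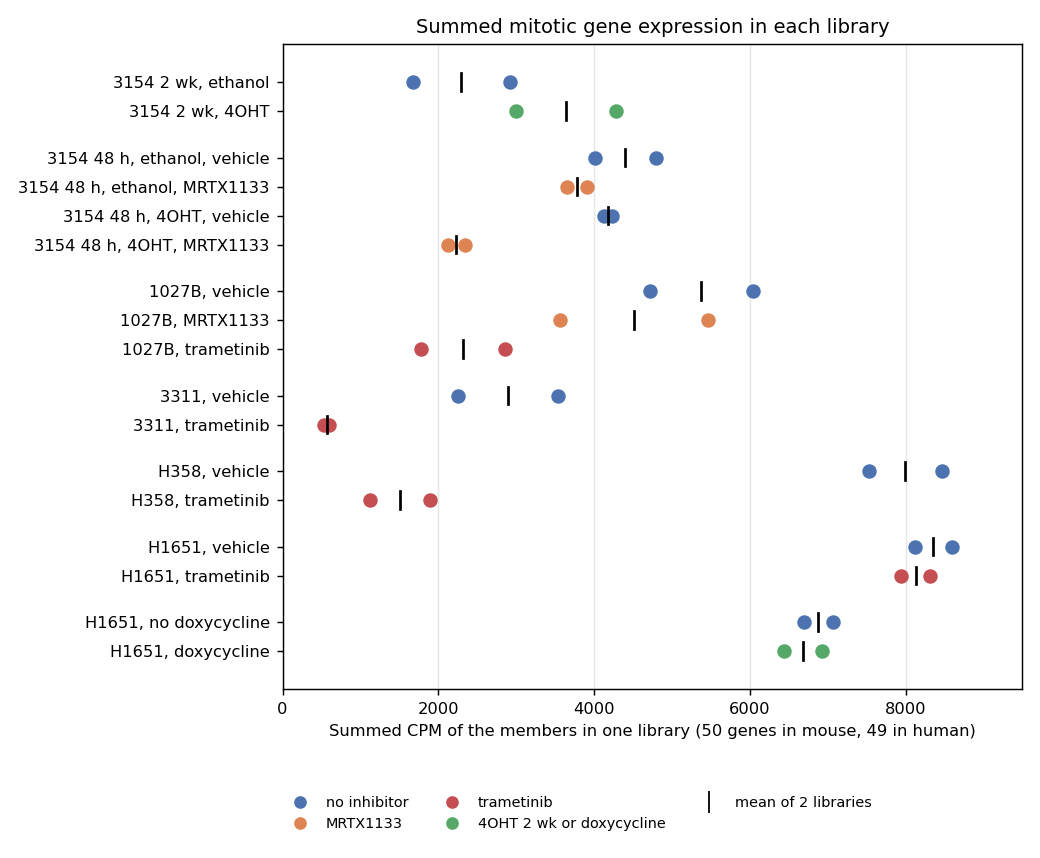
Summed CPM of the members (horizontal axis) in each of the 34 libraries, one row per group; points are libraries, coloured by treatment, and black bars are means of 2 libraries. The 3311 and H358 trametinib libraries lie far to the left of their vehicle libraries, while the H1651 groups overlap.

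The promoters of the members are shown first because most of these genes moved together. RefSeq promoter windows for mouse build GRCm38.p6, running from 250 bases before to 50 bases after the gene start, matched 41 of the 50 members with 43 windows. Below are the 100 bases before the start, 5′ to 3′ on the gene's strand, for a cyclin-dependent kinase gene, a topoisomerase gene, a spindle motor gene, the anaphase activator gene and the proliferation marker gene, followed by 1 member that lacks the motif. Capitals mark the CHR core, TTTGAA, which reads TTCAAA where it lies on the opposite strand. They also mark the CCAAT box, which reads ATTGG there.
Cdk1, chr10:69352913-69353012, minus strand: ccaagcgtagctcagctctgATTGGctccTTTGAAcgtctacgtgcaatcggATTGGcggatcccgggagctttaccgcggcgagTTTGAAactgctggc
Top2a, chr11:99024190-99024289, minus strand: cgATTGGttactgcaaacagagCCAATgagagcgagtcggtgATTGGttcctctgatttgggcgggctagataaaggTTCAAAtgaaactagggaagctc
Kif11, chr19:37376282-37376381, plus strand: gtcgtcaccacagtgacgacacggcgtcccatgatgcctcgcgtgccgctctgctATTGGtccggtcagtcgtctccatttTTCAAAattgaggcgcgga
Cdc20, chr4:118437344-118437443, minus strand: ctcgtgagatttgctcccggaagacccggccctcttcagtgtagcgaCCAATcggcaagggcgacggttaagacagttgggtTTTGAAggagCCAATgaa
Mki67, chr7:135716380-135716479, minus strand: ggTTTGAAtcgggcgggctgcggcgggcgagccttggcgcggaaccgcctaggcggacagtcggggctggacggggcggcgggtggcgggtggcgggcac
Bub1, chr2:127831860-127831959, minus strand: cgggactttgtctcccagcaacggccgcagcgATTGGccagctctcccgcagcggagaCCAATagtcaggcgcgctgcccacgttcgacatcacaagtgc

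In other members the CHR core lay just after the annotated start. The following 30-base stretches, in the same notation and build with only the CHR core in capitals, show it for 5 of them.
Plk1, chr7:122159453-122159482, plus strand: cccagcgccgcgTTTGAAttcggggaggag
Cenpa, chr5:30666890-30666919, plus strand: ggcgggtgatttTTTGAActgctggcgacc
Bub1b, chr2:118598231-118598260, plus strand: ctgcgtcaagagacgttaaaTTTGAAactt
Aspm, chr1:139454767-139454796, plus strand: ggaggcgcgataTTTGAAccgagcaaaagc
Kif23, chr9:61946780-61946809, minus strand: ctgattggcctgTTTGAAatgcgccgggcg

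TTTGAA, searched on both strands, was present in 35 of the 43 member windows, or 81.4% (Wilson 95% interval 67.4% to 90.3%, which covers counting error only). Of all 32851 windows, 17.9% held it. CCAAT, searched the same way, was present in 74.4% of member windows and 37.4% of all windows. The letters of a CCAAT box and a CHR core can overlap at their ends, but do not in the sequences printed. By position, 51.2% of member windows held TTTGAA within the 50 bases after the start and 23.3% within the 50 bases before it, against 2.25% and 2.82% of all windows. In the 250 bases before the start alone, TTTGAA was in 37.2% of member windows and 16.0% of all windows, so most of the difference lay downstream of the annotated start. The 8 members with a window and no TTTGAA were Ccnb1, Ncaph, Cenpe, Nuf2, Birc5, Bub1, Mad2l1 and Pttg1. A match describes the letters only, and its absence says nothing about the factors that bind there.

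**Figure D2:**
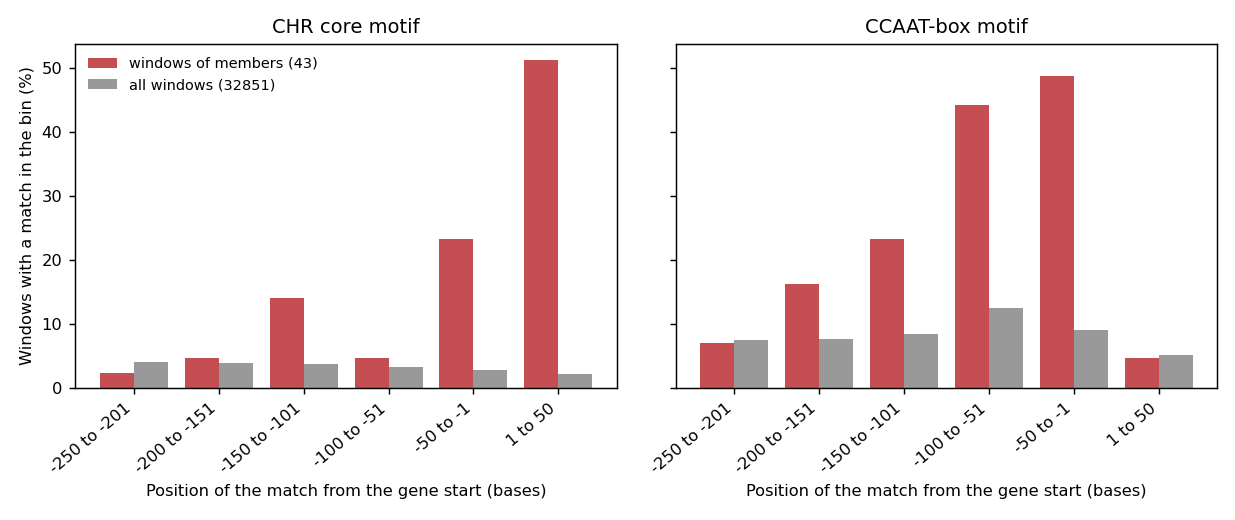
Share of promoter windows (vertical axis, percent) with a match to the CHR core motif (left) or the CCAAT box (right) in bins of 50 bases from the gene start (horizontal axis), for the 43 member windows in red and all 32851 windows in grey. Member windows peak for the CHR core in the last bin, 51.2% against 2.25%, and for the CCAAT box in the bins before the start.

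Trametinib lowered nearly the whole set in 3311 cells. Of 50 members, 48 fell and none rose, where 19.6% of all genes tested were called lower. The median member change was -2.95 on the log2 scale, a 7.72-fold fall, beside 0.01 over all genes tested. Their summed level was 3531 and 2259 CPM in the vehicle libraries and 533 and 599.5 CPM with trametinib, 19.6% of the vehicle mean. Both trametinib libraries lay far below both vehicle libraries. In such bulk samples, fewer dividing cells and less message per cell cannot be told apart.

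The mitotic entry genes fell without exception, 8 of 8. Ccnb1, cyclin B1, the partner of Cdk1 that starts mitosis, read 60.7 and 36.6 CPM with vehicle and 3.44 and 6.16 CPM with trametinib, and so fell by 3.34 (SE 0.354, adjusted p = 0.00104). Ccna2 and Ccnb2, the other mitotic cyclins of the set, fell by 4.27 and 4.25, among the 3 steepest falls. Bub1, a kinase of the spindle checkpoint, had the largest change and fell by 4.33 (adjusted p = 0.00116), from 40.7 and 30.1 CPM to 0.825 and 2.70 CPM. All 4 checkpoint genes fell, including Bub1b, which encodes BUBR1, from 125 and 82.0 CPM to 17.4 and 18.5 CPM.

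Among chromosome structure genes 6 of 7 fell. Mki67, whose product coats mitotic chromosomes and is the standard proliferation marker, went from 231 and 132 CPM to 7.82 and 13.6 CPM (log2 change -4.09, adjusted p = 0.000633). Smc2, a core condensin subunit, was one of the 2 members not called, at 40.8 and 29.5 CPM with vehicle and 29.5 and 26.9 CPM with trametinib (log2 change -0.32, adjusted p = 0.225). The other was Spc25 of the NDC80 complex, at 15.2 and 13.9 CPM against 10.3 and 10.8 CPM (log2 change -0.46, adjusted p = 0.103). These 2 members missed the threshold although their groups did not overlap either, and Smc4, the partner of Smc2, was called with a change of -0.76 (adjusted p = 0.0141). Cenpa, the histone variant that marks centromeres, fell by 3.19 (112 and 54.9 CPM to 8.46 and 9.85 CPM).

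The passenger complex kinase Aurkb, which corrects faulty attachments, fell by 4.20 (44.6 and 25.2 CPM to 1.47 and 2.32 CPM). All 9 motor and assembly genes fell. Kif11, the motor that pushes spindle poles apart, read 44.8 and 31.9 CPM with vehicle and 3.62 and 6.09 CPM with trametinib (log2 change -2.98). Cdc20, which activates the anaphase-promoting complex, fell less, by 1.85 (63.2 and 40.6 CPM to 12.8 and 16.0 CPM). Kif20a, a motor of the central spindle, fell by 3.05 (88.3 and 53.1 CPM to 7.21 and 9.89 CPM). For Kif20a and Ube2c, 29.3% and 22.8% of the exon bases overlap exons of a gene on the opposite strand, and counting by strand is not stated, so reads of the partners cannot be told apart. Adjusted p was at most 0.00208 for each of these anchor genes, and the groups did not overlap for any of the 50 members, against 36.6% of all genes not overlapping in this direction. Among the markers, Krt18, Pdgfra and Cd68 fell and Col1a1 rose in the same comparison, with the 5 fibroblast markers summing to 21.5 and 26.2 CPM with vehicle and 17.5 and 17.3 CPM with trametinib, and the part of these genes in the result was not tested.

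In H358 cells all 49 members fell with trametinib, where 23.2% of genes tested were called lower, with changes between -3.00 and -1.42 and a median of -2.44, a 5.42-fold fall. The summed level went from 7534 and 8462 CPM to 1124 and 1890 CPM, 18.8% of the vehicle mean. KIF4A, counted apart, fell by 2.42 (adjusted p = 0.000242). The steepest falls were KIF2C, a microtubule-depolymerising kinesin, by 3.00 (141 and 150 CPM to 13.9 and 22.8 CPM), then PTTG1, securin, which holds separase inactive, by 2.98, and AURKB by 2.95. PTTG1 shares sequence with PTTG2, and KIF4A with KIF4B, so their counts are less certain than those of other members.

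CCNB1 in H358 went from 249 and 298 CPM to 28.3 and 60.5 CPM (log2 change -2.63, adjusted p = 0.000307). MKI67 went from 348 and 419 CPM to 50.4 and 90.6 CPM, and BUB1B from 186 and 207 CPM to 23.5 and 37.6 CPM. CDC20 fell by 2.70, from 190.5 and 232 CPM to 20.7 and 44.7 CPM. In each of these genes the trametinib library of replicate 1 was the lower of the pair, and both lay under every vehicle library. CENPA fell by 2.79, KIF11 by 2.14 and KIF20A by 2.51, each with an adjusted p of at most 0.000171. Markers of other cell types moved in the same comparison. Of the 5 epithelial markers, KRT8, KRT18 and EPCAM fell and CDH1 rose, and their sum was 5534 and 5337 CPM with vehicle and 3601 and 3882 CPM with trametinib. COL1A1 and COL3A1 rose among 5 fibroblast markers, of which 4 were tested and which together summed to 37.7 and 33.4 CPM with vehicle and 147.6 and 118.8 CPM with trametinib, mostly COL1A1 (34.4 to 126 CPM on average). CDH5 rose among 3 endothelial markers (sums of 11.6 and 14.2 CPM against 20.8 and 21.0 CPM), and PTPRC among leukocyte markers, which summed to at most 1.35 CPM with CD3E at 0. The part of these markers in the members' fall was not tested. SMC2 changed least among the members and fell by 1.42, and it had also changed least in 3311.

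H1651 cells gave no call in the set under the same drug, dose and time. The members summed to 8119 and 8595 CPM with vehicle and 7946 and 8317 CPM with trametinib, so the groups overlapped. None of the 49 members was called, and none of the 18277 genes tested was (0% called lower); 1 member and 597 genes had an unadjusted p under 0.05, and DESeq2 called 47 genes. Member changes ran from -0.24 to 0.15 with a median of -0.02, and the 95% intervals of the single members lay between -0.64 and 0.50. CCNB1 read 189 and 211 CPM with vehicle and 181 and 204 CPM with trametinib. KIF11 read 151 and 157 CPM against 147 and 158 CPM, and AURKB 108 and 101 CPM against 109 and 114 CPM. MKI67, with the most negative estimate, was at 270 and 252.5 CPM with vehicle and at 252 and 190 CPM with trametinib. The member with an unadjusted p under 0.05, named after its values were seen, was ECT2, which activates RhoA at the cleavage furrow, at 220 and 224 CPM with vehicle and 190 and 193 CPM with trametinib.

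A test of the difference between the lines called all 49 members, each with a more negative change in H358 than in H1651, where 9.86% of the genes tested were called in this direction. The differences ran from -3.02 for AURKB to -1.44 for SMC2, with a median of -2.44. The line and its count table cannot be told apart in this test, since each line has its own table. Markers moved in the same test, with COL1A1, COL1A2, COL3A1, CDH5 and PTPRC called with a more positive and KRT8 and KRT18 with a more negative change in H358, and their part in the result was not tested. DUSP6, an ERK phosphatase induced by the pathway, read 158 and 177 CPM against 0.645 and 1.22 CPM in H358, and 49.8 and 51.8 CPM against 5.27 and 7.46 CPM in H1651, where its adjusted p was 0.149. The 10 genes of the ERK output list had a median change of -3.93 in H358, with 10 called lower, and of -1.52 in H1651, with none called by edgeR.

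**Figure D3:**
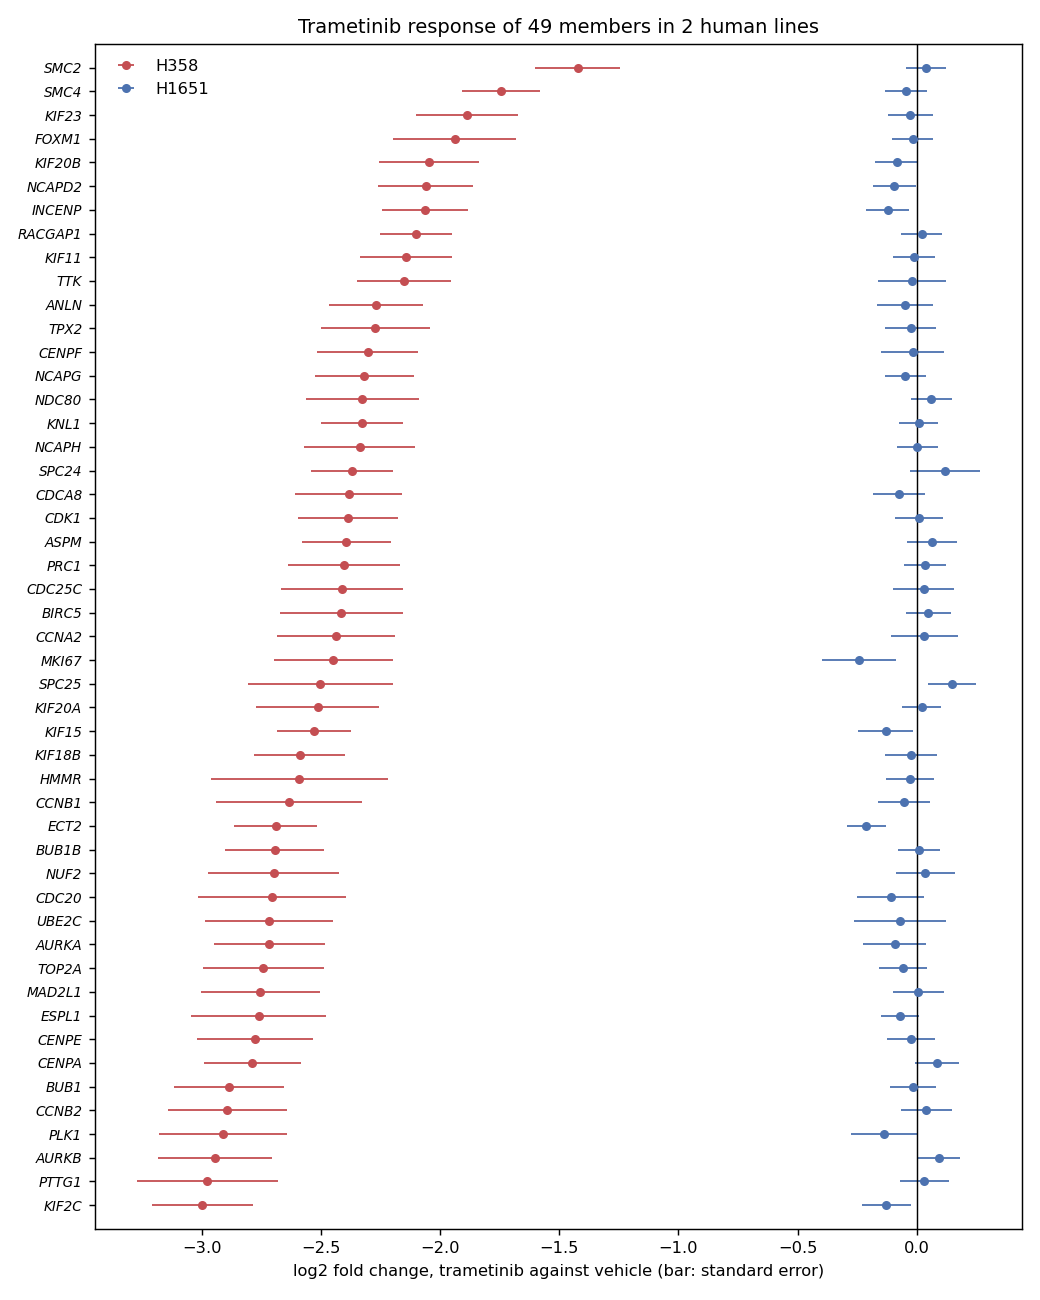
Log2 change with trametinib (horizontal axis) of each of the 49 human members in H358 (red) and H1651 (blue); points are edgeR estimates from 2 libraries a group and bars are standard errors. The H358 estimates lie between -3.00 and -1.42 and the H1651 estimates between -0.24 and 0.15.

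In 1027B organoids trametinib at 10 nM also lowered most of the set. Of 50 members 35 fell and none rose, where 13.2% of genes tested were called lower, and the median change was -1.24, a 2.37-fold fall. The sum over members was 4712 and 6039 CPM with vehicle and 1773 and 2861 CPM with trametinib, 43.1% of the vehicle mean. With the replicate number as a block all 50 members were called lower, where 23.0% of genes were in that fit. Without vehicle replicate 2 the number was 9 (6.05% of genes) and without trametinib replicate 1 it was 5 (4.07% of genes), while the median change stayed between -1.71 and -0.91 without any single library. Across roles, 7 of 8 mitotic entry genes fell, 4 of 4 checkpoint genes, 7 of 9 motors, 5 of 6 genes of cytokinesis, 3 of 4 of the passenger complex and 3 of 4 of anaphase onset, against 3 of 7 chromosome structure genes and 3 of 8 kinetochore genes.

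The steepest falls in 1027B were Bub1, by 1.79 (112 and 138 CPM to 29.9 and 42.6 CPM), Ube2c, the ubiquitin-conjugating enzyme of the anaphase-promoting complex, by 1.76 (144 and 218 CPM to 39.4 and 67.7 CPM), and Ccnb1, by 1.73 (84.9 and 98.7 CPM to 22.6 and 32.8 CPM). Their adjusted p values were 0.00338, 0.0113 and 0.00384. Mki67 read 356.5 and 481 CPM with vehicle and 106 and 234 CPM with trametinib, which was not called (log2 change -1.30, adjusted p = 0.0695) but was with the block (adjusted p = 0.000163). In each of these 4 genes replicate 1 was the lower library in both groups. Cenpa fell by 1.45, Aurkb by 1.62, Bub1b by 1.21, Kif11 by 1.24, Cdc20 by 1.28 and Kif20a by 1.23. Of the markers, Krt19 and Ptprc fell and Cdh1 rose, and their part in the result was not tested.

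MRTX1133 left the set near the vehicle level in 1027B when the libraries were taken as unpaired. The members summed to 3564 and 5462 CPM, overlapping the vehicle libraries, and none was called, where 3.26% of genes tested were called lower. The median change was -0.25, 45 of 50 members were below 0, and 3 (Ccnb1, Cenpa and Bub1) had an unadjusted p under 0.05, against 23.2% of all genes. DESeq2 called none. With the replicate block 17 members were called lower, where 12.7% of genes were in that fit. Among the anchor genes these were Ccnb1 (51.9 and 74.1 CPM, blocked log2 change -0.56, adjusted p = 0.0050), Cenpa (55.7 and 59.1 CPM, blocked change -0.46, adjusted p = 0.0191), Cdc20 (blocked change -0.32) and Kif20a (blocked change -0.26). Mki67, at 239 and 485 CPM, Aurkb, Bub1b and Kif11 were not called either way, and their unblocked changes of -0.21, -0.25, -0.13 and -0.15 turned positive without vehicle replicate 2 or without MRTX1133 replicate 1. The direct comparison had all 50 members higher with MRTX1133 than with trametinib, by a median of 1.02, and in 49 the groups did not overlap, where 24.3% of all genes lay apart in this direction. None was called (0% of genes tested were called higher in the unblocked fit), 46 had an unadjusted p under 0.05 (16.2% of all genes had), the smallest adjusted p was 0.111, and 49 were called higher with the block (7.75% of genes) and 34 by DESeq2 (2.43% of genes). ERK output genes were lower with both drugs, 9 of 10 with trametinib and 5 of 10 with MRTX1133, with medians of -1.67 and -0.94; Spry4, an ERK feedback inhibitor, fell by 4.49 and by 1.97. The 2 drug groups share their vehicle libraries, and the doses differ.

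In 3154 organoids MRTX1133 lowered the set in organoids given 4OHT, and gave no call in those given ethanol. With ethanol the members summed to 4790 and 4012 CPM with vehicle and 3908 and 3650 CPM with MRTX1133. With MRTX1133 the mean was 85.9% of the vehicle mean, and the groups did not overlap. None of 50 was called, where 0.0323% of genes tested were called lower. The median change was -0.21, and 6 members had an unadjusted p under 0.05, near the share of 11.8% over all genes. In 15 of the 50 members both MRTX1133 libraries lay below both vehicle libraries, a larger share than the 15.0% of all genes. DESeq2 called no member either. Ccnb1 read 92.8 and 97.2 CPM with vehicle and 77.6 and 80.1 CPM with MRTX1133, Mki67 425 and 185 CPM against 289 and 178 CPM, and Kif20a 109 and 111 CPM against 113 and 107 CPM.

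After deletion, 40 of 50 members fell with MRTX1133 and none rose, where 2.54% of genes tested were called lower. The median change was -0.88, a 1.85-fold fall, and the members summed to 4232 and 4123 CPM with vehicle and 2124 and 2337 CPM with MRTX1133, 53.4% of the vehicle mean. In all 50 members both MRTX1133 libraries lay below both vehicle libraries, where 33.2% of all genes did so. The steepest falls were in kinetochore genes. Cenpe, a motor that carries chromosomes to the spindle equator, fell by 1.28 (65.8 and 64.4 CPM to 23.7 and 29.8 CPM). Knl1, the scaffold that recruits the checkpoint, fell by 1.26 (47.0 and 42.5 CPM to 16.4 and 20.8 CPM), and Cenpf by 1.23 (109 and 96.2 CPM to 35.9 and 51.6 CPM). By role, 8 of 8 mitotic entry genes and 6 of 6 genes of cytokinesis fell, with 8 of 9 motors, 6 of 8 kinetochore genes, 3 of 4 of the passenger complex, 3 of 4 checkpoint genes, 4 of 7 chromosome structure genes and 2 of 4 of anaphase onset.

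Among the anchor genes Ccnb1 read 88.6 and 83.6 CPM with vehicle and 46.8 and 41.7 CPM with MRTX1133 (log2 change -0.96, SE 0.122, adjusted p = 0.0174). Kif20a read 147.5 and 155 CPM against 79.6 and 90.5 CPM (log2 change -0.83, adjusted p = 0.0185). Mki67 read 328 and 288 CPM against 102 and 162 CPM and was not called by edgeR (log2 change -1.22, adjusted p = 0.137). Its spread was wide in the ethanol vehicle libraries of the same fit, at 425 and 185 CPM. Bub1b fell by 1.06, Kif11 by 0.92, Aurkb by 0.87, Cenpa by 0.78 and Cdc20 by 0.66. These calls rested on having both libraries in each of the deleted groups: without any one of the 4, no member was called (0 to 23 of all genes were), while the median change stayed between -0.94 and -0.85.

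The test of the difference between the MRTX1133 changes with and without Hnf4a called no gene in edgeR (0% of genes tested). Every one of the 50 estimates was negative, with a median of -0.69. Of the members 37 (74.0%) had an unadjusted p under 0.05, against 1150 genes (7.44%). The smallest adjusted p of a member was 0.541. DESeq2 called 4 members and 0.155% of genes lower. A larger fall after deletion was therefore not established for the members by the edgeR test.

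**Figure D4:**
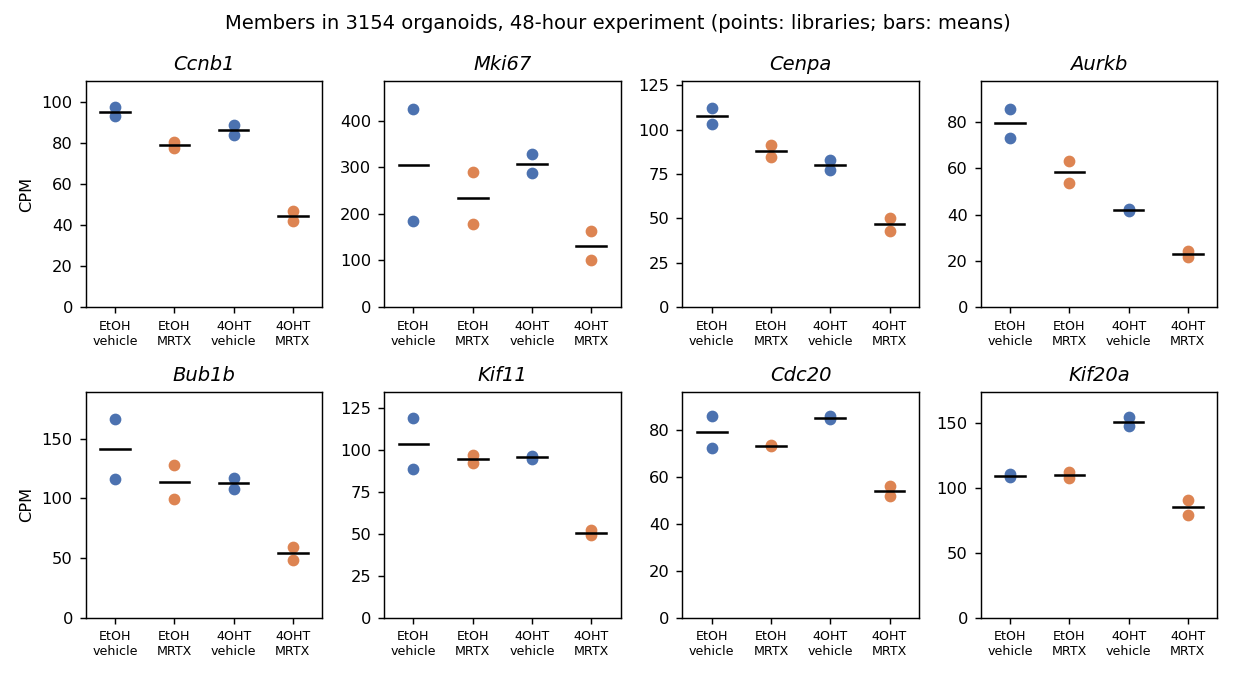
CPM (vertical axis, from 0) of the 8 anchor genes, one panel each, in the 4 groups of the 48-hour 3154 experiment; points are libraries and bars are means of 2. The libraries given both 4OHT and MRTX1133 are the lowest of their panels for each gene, with Ccnb1 at 46.8 and 41.7 CPM.

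Deletion of Hnf4a with vehicle for 48 h changed 7 of 50 members, 5 down and 2 up, where 15.7% of genes tested were called lower and 15.3% higher. The share of members called was thus below that of all genes. The members summed to 4790 and 4012 CPM with ethanol and 4232 and 4123 CPM with 4OHT, and the groups overlapped. Plk1, the Polo kinase that drives spindle and centrosome maturation, fell by 1.00 (156 and 131 CPM to 70.8 and 73.1 CPM, adjusted p = 0.00246). Aurkb fell by 0.92 (85.7 and 73.3 CPM to 41.5 and 42.3 CPM, adjusted p = 0.00329). Ncaph, a condensin subunit, fell by 0.49, Cenpa by 0.43 and Ube2c by 0.41.

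Against that direction, Foxm1, the transcription factor that activates late cell-cycle genes, rose by 0.76 (34.6 and 36.2 CPM to 60.0 and 59.7 CPM, adjusted p = 0.00387). Kif20a rose by 0.46 (108.5 and 111 CPM to 147.5 and 155 CPM, adjusted p = 0.0216). For both genes the 4OHT libraries lay above the ethanol libraries. Scaled by total counts, 2 members were called lower and 5 higher, where 10.4% and 22.7% of genes were, so the balance of this comparison turned with the scaling. Leaving out single libraries gave 2 to 8 members lower and 1 to 7 higher, with 4.99% to 18.9% and 5.37% to 18.1% of genes.

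Under MRTX1133, the same deletion was accompanied by 35 members lower and none higher, where 14.5% of genes tested were called lower. The median change was -0.70, a 1.63-fold fall, and the sums were 3908 and 3650 CPM with ethanol and 2124 and 2337 CPM with 4OHT. Plk1 fell by 1.42 (133 and 112 CPM to 43.1 and 48.7 CPM, adjusted p = 0.000639). Aurkb fell by 1.35 (63.2 and 53.8 CPM to 21.6 and 24.2 CPM), and Bub1 by 1.16 (71.6 and 79.6 CPM to 33.2 and 34.6 CPM). These 3 genes had the largest falls of the set. Ccnb1 fell by 0.83, Cenpa by 0.91, Bub1b by 1.07, Kif11 by 0.90 and Cdc20 by 0.44. Kif20a (log2 change -0.37, adjusted p = 0.0517) and Mki67 (-0.82, adjusted p = 0.165) were not called, nor was Foxm1 (-0.17). Both comparisons share libraries with the MRTX1133 comparisons above. Without 1 library of the groups compared, 14 to 32 members and 5.76% to 9.80% of genes were called lower, the fewest members without replicate 1 of the 4OHT and MRTX1133 group, and 20 without its replicate 2 or without ethanol MRTX1133 replicate 1. The fibroblast marker Col1a1 rose in this comparison, from 0.115 and 0.121 CPM to 0.473 and 0.426 CPM, with the other 4 fibroblast markers absent or at 0, and its part in the result was not tested.

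In the 2-week experiment a single member was called, and it was higher after deletion. Ndc80, the outer kinetochore protein that grips microtubules, rose by 1.17 (20.7 and 13.4 CPM to 43.3 and 33.7 CPM, a 2.26-fold rise, adjusted p = 0.0474), where 4.03% of genes tested were called higher. The call was lost when 10 counts were required in every library, where 2.96% of genes were called higher. No member was called lower, where 5.78% of genes were. The members summed to 2918 and 1674 CPM with ethanol and 4281 and 2994 CPM with 4OHT, and 49 of 50 changes were positive with a median of 0.72. Plk1 alone was negative, at -0.15. In 28 of the 50 members both 4OHT libraries lay above both ethanol libraries, a larger share than the 31.5% of all genes. The endothelial marker Pecam1 fell in this comparison, from 5.93 and 5.03 CPM to 2.04 and 2.21 CPM, and its part in the result was not tested.

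The 2 ethanol libraries differed widely. Ccnb1 read 69.5 and 32.3 CPM with ethanol and 105 and 63.5 CPM with 4OHT (log2 change 0.73, adjusted p = 0.293). Mki67 read 181 and 81.8 CPM against 235 and 151 CPM (0.55, adjusted p = 0.403). Kif20a read 106 and 55.8 CPM against 197 and 140 CPM (1.06, adjusted p = 0.106). In each of these genes replicate 1 was the higher library of its group, and only for Kif20a did the groups lie apart. Kif11 was at 0.73, Cdc20 at 0.64, Aurkb at 0.42, Bub1b at 0.41 and Cenpa at 0.34, with none called. Without ethanol replicate 1, 45 members were called higher with a median of 1.29, where 8.01% of genes were in that fit. Without either 4OHT library none was, where 1.23% and 0.986% of genes were. DESeq2 called 12 members and 6.24% of genes higher.

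Inducing HNF4A in H1651 with doxycycline gave no call in the set. Summed levels were 6697 and 7064 CPM without and 6443 and 6932 CPM with doxycycline. None of 49 was called by edgeR or DESeq2, where 0.386% of genes tested were called lower and 1.04% higher, and 1, ASPM, a spindle pole protein named after its values were seen, had an unadjusted p under 0.05, against 12.7% of all genes. The changes ran from -0.21 to 0.18 with a median of -0.03, and the 95% intervals of single members lay between -0.43 and 0.41. CCNB1 read 150 and 165 CPM without and 145 and 168.5 CPM with doxycycline, and KIF20A 156 and 175 CPM against 156 and 179 CPM. BUB1B, at 97.1 and 101 CPM against 89.5 and 89.3 CPM, and KIF11, at 128 and 131 CPM against 116 and 123 CPM, were lower in both doxycycline libraries without a call. KRT8 and KRT18 rose and COL3A1 fell in the same comparison. The 5 fibroblast markers summed to 513.8 and 565.5 CPM without and 312.8 and 329.7 CPM with doxycycline. The part of these markers in the result was not tested.

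Of the 49 members tested in all 3 of the 3311, 1027B and H358 trametinib comparisons, 34 (69.4%) were lower in each, where 502 of 9990 genes (5.03%) matched by symbol across the 3 tables were. Ncaph, Cenpa, Aurkb and Ube2c were called lower in 6 of the 11 comparisons with a matching vehicle or control, and Spc25 in 1. Several of these comparisons share libraries.

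**Figure D5:**
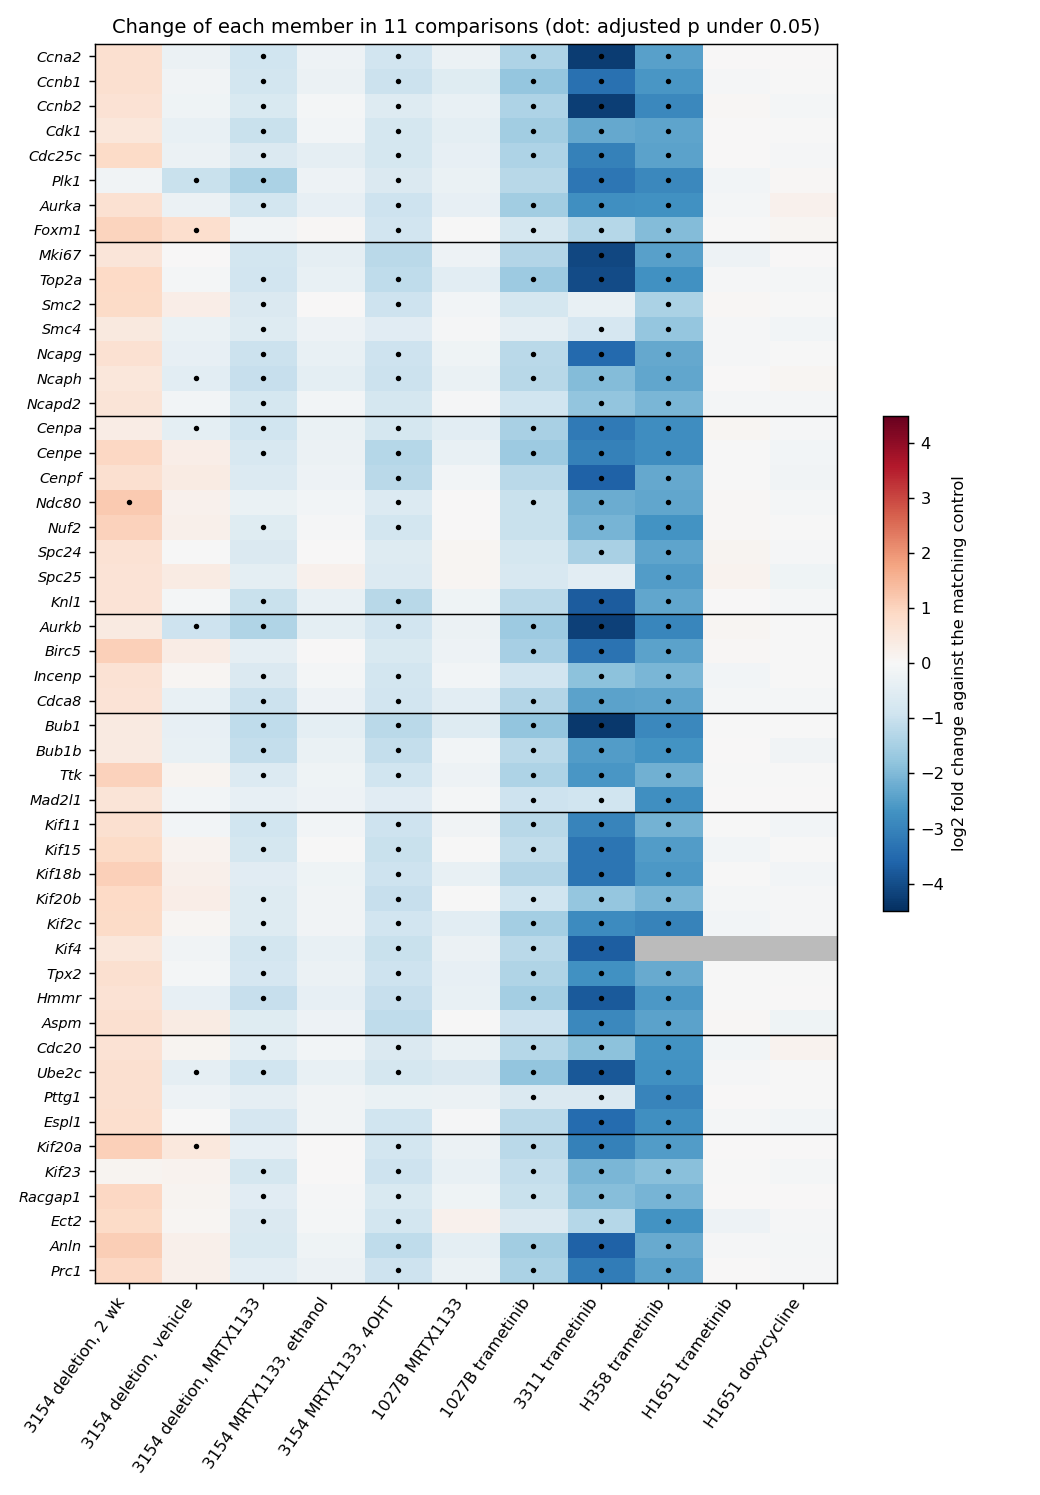
Log2 change of each member (rows, grouped by role between black lines) in 11 comparisons (columns), blue for lower and red for higher; a dot marks an adjusted p under 0.05 and grey marks Kif4, which was not matched in the human tables. Columns for trametinib in 3311 and H358 are blue over nearly all rows, with 48 of 50 and 49 of 49 members called.

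Other genes of cell division, from separate lists, are given beside the members. Of 42 other periodic mitotic genes tested, 39 fell in 3311, 31 in 1027B and 42 in H358 with trametinib, none rose, and the medians were -2.24, -1.13 and -2.38. Of all genes tested in these tables, 19.6%, 13.2% and 23.2% were called lower and 19.4%, 13.5% and 23.5% higher. Ska1, a kinetochore coupler, fell by 4.45 in 3311, from 3.08 and 1.95 CPM to 0.0717 and 0.152 CPM. So few reads remained with trametinib that the size of this fall is uncertain. Cohesin, anaphase-promoting complex and other segregation subunits formed a list taken here as not strongly periodic. Of its 34 genes, 9 were lower and 5 higher in 3311, 3 and 2 in 1027B, and 19 and 1 in H358. The medians were -0.17, -0.18 and -0.48. In 3311 and 1027B these counts lay near or below the shares over all genes. In H358 the 19 of 34 lower was a larger share than the 23.2% of all genes. In H1651 none of either list was called. After deletion, MRTX1133 lowered 17 of the 42 periodic genes and 2 of the 34 others, where 2.54% of all genes were called lower. These counts come from the fit whose member calls were lost without any one library of the deleted groups.

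Of 22 regulators of mitotic transcription, trametinib gave 5 lower and 1 higher in 3311 (median -0.29), 6 and 2 in 1027B (median -0.27) and 14 and 1 in H358 (median -0.72). The 3311 count of lower genes is near the 19.6% of all genes called lower there. Nfyc, a subunit of NF-Y, rose in 3311 by 1.81. Mybl2, which encodes B-MYB, fell with trametinib in 3311 by 1.83, in 1027B by 1.79 and in H358 by 1.74, and with MRTX1133 after deletion by 1.14. E2f8, an atypical E2F repressor, fell in the same 4 comparisons, by 2.81, 1.23, 1.54 and 0.93. Rb1, the retinoblastoma gene, fell with Hnf4a deletion at 2 weeks by 1.37 and at 48 h with vehicle by 1.52. DNA replication genes, which peak earlier in the cycle, fell in 12 of 21 in 3311, 10 in 1027B and 20 in H358 with trametinib, with medians of -0.83, -0.58 and -1.61. After deletion MRTX1133 lowered 6 of the 21 and 3 of the 10 ERK output genes, where 2.54% of all genes were called lower. Both counts come from the same fit as those of the periodic genes, with the same limit. With ethanol only 0.0323% of all genes were called lower, none of them in these lists, and the test of the difference called no gene of either list.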

How the data were processed

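RNA was sequenced from 34 libraries as poly(A)-selected, directional, paired-end libraries, per the labels' protocols. The deposited values are raw counts per gene, whole numbers in 7 tables. Per the submitters' processing notes, cutadapt 3.5, STAR 2.7.6a and featureCounts 1.6.3 were used, with builds mm10, mm39 and hg38; which build belongs to which mouse table is not given in the sources used here. Columns were matched to libraries by name; those of the 3311 table name treatment and replicate without the line, which was taken from the table. The number of columns of other samples was 0.

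Each table was fitted in R 4.3.3 with edgeR 4.0.16 (limma 3.58.1): genes kept by filterByExpr, TMM scaling, quasi-likelihood F-test on group means, Benjamini-Hochberg adjustment over all genes tested (14492 to 21188), and a gene called at adjusted p under 0.05. Library totals of 19692517 to 45284286 counts and 2 libraries per group set the precision; counting error is small beside the spread between libraries (chi-square per degree of freedom 5.40 to 79.5 within groups). The H358 and H1651 responses were compared by an interaction contrast over both tables. The scripts were tested on simulated data. Promoter windows are RefSeq's for GRCm38.p6, searched on both strands; 9 members had none and are not shown.

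In 1027B, libraries with the same replicate number deviated together in all 3 pairs of groups (correlations 0.243 to 0.414), so values with the replicate number as a block are given for that table. Named genes were 8 anchors, 1 per role, plus up to 3 members with the largest called fall or rise per comparison and members called against the main direction; up to 3 called genes were named from other lists. Members and lists were chosen with earlier results of these data known. Alternatives were other scalings (RLE, upper quartile, total count), other filters (at least 10 counts in every library, or none), DESeq2 1.42.0, the replicate block, only the 2 groups compared, a shorter promoter window and leaving out each library. KIF4A was looked up after seeing the data and is given apart, outside the human counts and medians.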

Additional observations from a re-analysis of the deposited data

Results flagged for a closer look

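The response to trametinib differed between H358 and H1651 by the interaction test for 49 members, where 9.86% of all genes tested were called in the same direction. The differences of log2 change, H358 minus H1651, were -2.56 for CCNB1, -2.19 for MKI67, -2.85 for CENPA, -3.02 for AURKB, -2.68 for BUB1B, -2.11 for KIF11, -2.57 for CDC20 and -2.51 for KIF20A. Line and count table cannot be told apart.

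The summed member level of 3154 organoids given 4OHT lay on opposite sides of the ethanol level in the 2-week experiment and in the MRTX1133 arm of the 48-hour experiment. At 2 weeks both 4OHT libraries lay above both ethanol libraries, at a ratio of 1.58, although the nearest libraries were at 2994 and 2918 CPM. Under MRTX1133 both lay below, at a ratio of 0.59. In the vehicle arm of the 48-hour experiment, the arm without drug as at 2 weeks, the ratio was 0.949 and the groups overlapped. The difference between these ratios was not tested, and the experiments and their labelled times differ.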

How the results depend on the processing

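With 2 libraries per group, leaving one out leaves a lone library that is assumed to vary like the others. Over such fits the median member change ran from -3.25 to -2.51 in 3311, -2.90 to -2.07 in H358, -1.71 to -0.91 for trametinib in 1027B (5 to 46 members lower), and -2.79 to -2.10 for H358 against H1651. In 3154 it ran from -0.28 to -0.074 for MRTX1133 with Hnf4a, -0.94 to -0.85 after deletion (0 lower throughout), -0.11 to 0.11 for deletion with vehicle (2 to 8 lower, 1 to 7 higher), -0.80 to -0.63 under MRTX1133 (14 to 32 lower), -0.79 to -0.62 for the interaction, and 0.32 to 1.29 at 2 weeks (0 to 45 higher). With doxycycline it ran from -0.11 to 0.019. Single genes changed sign in some of these fits. For MRTX1133 in 1027B, without vehicle replicate 2 the values were 0.043 for Mki67, 0.12 for Aurkb, 0.14 for Bub1b and 0.022 for Kif11, and without MRTX1133 replicate 1 they were 0.21, 0.13, 0.15 and 0.21. Their lowest values, without MRTX1133 replicate 2, were -0.80, -0.76, -0.45 and -0.60. For deletion with vehicle, Mki67 was at -0.47 when ethanol replicate 2 was left out, at 0.73 when replicate 1 was, and at -0.087 without 4OHT replicate 1; Kif11 and Cdc20 ranged from -0.32 to 0.11 and from -0.016 to 0.23. At 2 weeks Aurkb was at -0.0094 without 4OHT replicate 1 and at 0.99 when ethanol replicate 1 was left out. Over the anchor genes, fits without 1 library left 343 values on the same side of the threshold and in the same direction, 51 lost and 9 gained a call, and 13 turned; in the other alternatives these numbers were 637, 11, 36 and 4.

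With the replicate block, 17 members were lower for MRTX1133 in 1027B, 49 higher for MRTX1133 against trametinib, 48 higher (14.7% of genes) at 2 weeks, 3 lower and 2 higher with doxycycline (8.28% and 9.28% of genes), 2 lower with trametinib in H1651 (5.39%), and 3 lower for deletion with vehicle (15.9%). Outside 1027B no label ties the numbers, and the correlations of same-numbered libraries came from 1 pair of groups per table (0.126 in 3311, 0.318 in H358 and with doxycycline, 0.427 at 2 weeks, 0.623 for trametinib in H1651) or were not all above 0.1 (-0.252 to 0.549 over 6 pairs in 3154 at 48 h), so these libraries were taken to share only a number. The block left 38 lower for MRTX1133 after deletion (2.68% of genes), 48 in 3311 (20.8%) and 49 in H358 (29.8%). All genes called moved with the block from 1421 to 4563 at 2 weeks, 247 to 3048 with doxycycline, 3880 to 6540 and 913 to 3515 in 1027B, 4087 to 8472 for the line difference and 0 to 1881 in H1651. Crossing the numbers for deletion under MRTX1133, chosen after seeing the data (correlation -0.199), gave 48 lower (23.1% of genes). DESeq2 called 12 higher at 2 weeks, 34 higher for MRTX1133 against trametinib and 4 lower for the interaction, and put Mki67 at -0.0041 for deletion with vehicle (-0.0040 with RLE). Requiring 10 counts in every library gave 0 higher at 2 weeks, 3 lower for deletion with vehicle and a median of -0.67 under MRTX1133. Fitting only the 2 groups gave 2 lower and 1 higher for deletion with vehicle. Upper-quartile scaling gave medians of -0.84 for MRTX1133 after deletion, 0.016 (3 lower) for deletion with vehicle and -0.62 under MRTX1133. Total-count scaling gave -0.11 and -0.83 for MRTX1133 with ethanol and after deletion, 0.14 (2 lower, 5 higher, Ccnb1 0.058, Kif11 0.091) for deletion with vehicle and -0.55 under MRTX1133. It shifted the median of all genes by up to 0.20 and took the lower share of called genes from 50.7% to 31.3% for deletion with vehicle, 52.2% to 36.6% under MRTX1133, 50.2% to 39.0% in 3311, 58.9% to 46.3% at 2 weeks and 49.4% to 38.9% for trametinib in 1027B. The promoter share with TTTGAA was 37.2% in the 250 bases before the start. The cause of these shifts was not tested.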
